A study of Mus musculus with 2 samples.

Results

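The genes described here are 54 genes of mitosis: cyclins and their kinase, checkpoint and kinetochore genes, and genes of spindle, cytokinesis and condensin. They were chosen by name, with earlier results of these data known. All 54 were found among the 36400 gene names on the array. RNA came from neural stem and progenitor cells (NSPCs). These had been differentiated from mouse embryonic stem cells by way of embryoid bodies, and cultured as neurospheres, which are floating clusters of progenitors and their progeny. The miR-153 cells overexpressed that microRNA, and the control cells carried a control for overexpression, per the labels. Both cultures were tertiary neurospheres (passage 2) on day 18, with 1 array in each of the 2 groups. Wild-type or mutant alleles, the stem cell line and the way the microRNA was delivered are not given in the sources used here. With no replicates, no difference below has a replicate check, and none was tested.

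A cell enters mitosis when cyclin B and Cdk1 become active, and it leaves when the anaphase-promoting complex marks cyclin B and securin for destruction. In between, condensin folds the chromosomes, kinetochores on the centromeres attach them to the spindle, and the spindle assembly checkpoint delays separation until all are attached. Most of these genes are transcribed in a burst late in the cell cycle and are shut off in cells that stop dividing, such as young neurons, so they serve as a readout of proliferation in neural progenitors. Their shared control runs through CCAAT boxes, bound by the factor NF-Y, and through the cell cycle gene homology region (CHR). The CHR is bound by the DREAM complex, a repressor in resting cells, and by B-Myb and FoxM1 with the MuvB core in dividing cells.

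The overexpressed microRNA has these mature arms, printed from RefSeq for build GRCm38.p6 with the seed, bases 2 to 8, in capitals. The labels do not say which arm was counted as miR-153.
mmu-miR-153-3p: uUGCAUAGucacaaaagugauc
mmu-miR-153-5p: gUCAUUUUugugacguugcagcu
They lie at chr12:117250860-117250881 and chr12:117250821-117250843, both on the plus strand. The array does not measure mature microRNAs, so the overexpression itself was not checked here.

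Below are promoter windows of 6 of the 54 genes, from 250 bases before the RefSeq transcript start to 50 bases after it (GRCm38.p6, read 5′ to 3′ along the gene). The first 4 are shown as examples of windows that hold both motifs, Pttg1 as a gene that was lower with neither motif, and Bub3 as the gene that differed least. Capitals mark the CHR letters TTTGAA or TTCGAA and the letters CCAAT, each on either strand (TTCAAA and ATTGG on the other).
Bub1, chr2:127831810-127832109, minus strand: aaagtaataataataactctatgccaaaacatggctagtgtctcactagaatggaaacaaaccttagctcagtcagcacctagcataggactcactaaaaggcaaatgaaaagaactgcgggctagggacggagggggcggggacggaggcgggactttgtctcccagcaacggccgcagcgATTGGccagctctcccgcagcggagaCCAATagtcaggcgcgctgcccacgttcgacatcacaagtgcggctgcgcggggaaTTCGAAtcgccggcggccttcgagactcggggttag
Cdc20, chr4:118437294-118437593, minus strand: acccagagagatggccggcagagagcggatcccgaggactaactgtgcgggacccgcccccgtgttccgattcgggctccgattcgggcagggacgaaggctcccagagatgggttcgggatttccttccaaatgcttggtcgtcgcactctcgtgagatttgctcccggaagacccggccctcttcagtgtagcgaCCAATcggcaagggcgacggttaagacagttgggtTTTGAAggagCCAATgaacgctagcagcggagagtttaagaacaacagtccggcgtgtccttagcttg
Cdca8, chr4:124936868-124937167, minus strand: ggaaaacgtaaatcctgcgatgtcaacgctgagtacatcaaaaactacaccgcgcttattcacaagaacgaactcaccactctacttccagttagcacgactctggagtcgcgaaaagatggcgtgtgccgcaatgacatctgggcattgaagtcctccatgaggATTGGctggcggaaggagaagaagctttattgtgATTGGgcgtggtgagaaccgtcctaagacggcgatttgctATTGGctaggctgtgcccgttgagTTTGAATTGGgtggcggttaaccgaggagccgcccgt
Top2a, chr11:99024140-99024439, minus strand: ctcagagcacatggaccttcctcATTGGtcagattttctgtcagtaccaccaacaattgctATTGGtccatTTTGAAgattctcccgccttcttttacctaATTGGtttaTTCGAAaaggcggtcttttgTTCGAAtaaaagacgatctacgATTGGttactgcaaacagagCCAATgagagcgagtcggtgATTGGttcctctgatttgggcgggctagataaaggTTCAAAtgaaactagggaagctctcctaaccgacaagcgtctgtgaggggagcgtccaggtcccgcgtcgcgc
Pttg1, chr11:43425932-43426231, minus strand: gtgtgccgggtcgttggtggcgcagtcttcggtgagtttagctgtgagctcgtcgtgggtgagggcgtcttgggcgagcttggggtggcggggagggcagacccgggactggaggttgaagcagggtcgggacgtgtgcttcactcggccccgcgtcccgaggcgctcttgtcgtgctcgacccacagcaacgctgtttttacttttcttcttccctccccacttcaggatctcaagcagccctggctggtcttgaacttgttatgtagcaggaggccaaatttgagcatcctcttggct
Bub3, chr7:131560120-131560419, plus strand: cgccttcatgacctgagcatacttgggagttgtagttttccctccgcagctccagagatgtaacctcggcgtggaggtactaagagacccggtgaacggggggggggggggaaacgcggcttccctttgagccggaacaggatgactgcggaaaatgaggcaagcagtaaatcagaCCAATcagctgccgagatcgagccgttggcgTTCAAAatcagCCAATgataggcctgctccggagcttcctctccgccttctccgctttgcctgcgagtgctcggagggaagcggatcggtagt

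Expression was read on 1-colour Agilent arrays. A signal below is the intensity of a gene's brightest probe divided by the 75th percentile of its array, and a difference is the log2 signal of miR-153 cells less that of control cells. A gene is called detected on an array where the scanner flagged its spot as well above background, and measured where it was detected on both. Detected spots made up 55.6% of the 59305 non-control spots on the miR-153 array and 52.5% on the control array, and none was saturated. Both arrays lay on the same slide. The NSPC label was checked against 10 markers. All 10 were measured, and 3 were higher by 2-fold or more in miR-153 cells (Hes5 at 2.44, Prom1 at 1.74 and Sox1 at 1.15), 0 lower and 7 between, with Nes at -0.95. Their summed signal was 730 on the miR-153 array and 731 on the control array, most of it from Fabp7 (416 and 365) and Vim (167 and 275). Repeat spots of a probe differed by a median SD of 0.075 in the difference (263 probes), and different probes of a gene by a pooled SD of 0.47 (5025 genes). The scanner's own error estimate for the 54 genes lay between 10.0% and 35.4% of the signal. Positions of array probes below are on the mouse build mm9, as the files give them, and the exon in which a probe lies was not looked up.

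The 54 mitotic genes were lower in the miR-153 neurospheres almost without exception. They were chosen with earlier results of these data known, so the counts describe this set and do not test it. Of 74 other measured genes of mitosis, read further below, 30 were at least 2-fold lower. Of the 54, 53 were measured, and 52 of these were at least 2-fold lower on the miR-153 array and 0 higher. Of all 20437 measured genes, 11.0% were at least 2-fold lower and 9.23% at least 2-fold higher. The exceptions were Bub3, lower by less, and Aurkb, detected in control cells alone. Among measured genes matched to RefSeq, 9.83% were 2-fold lower and 11.1% higher. At or above the median level, 39 of 40 mitotic genes were 2-fold lower and 0 higher, where 8.89% of all such genes were lower and 7.05% higher. The median difference of the 53 was -2.18, a 4.52-fold lower signal, against a median of -0.11 over all measured genes. Only 1.83% of all measured genes had a difference at or below that of the mitotic median.

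**Figure D1:**
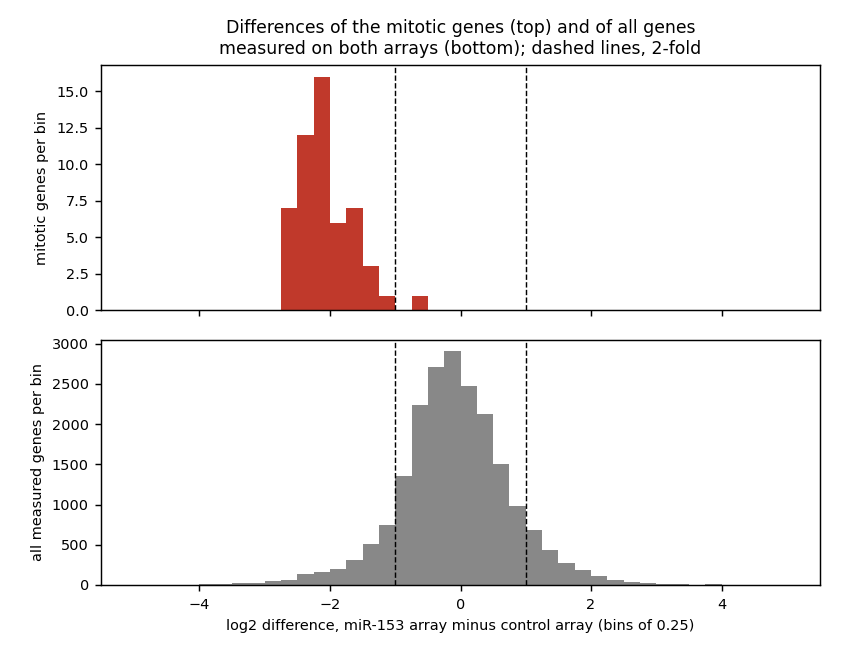
The top panel counts the 53 measured mitotic genes, and the bottom panel all 20437 measured genes, by log2 difference (miR-153 minus control) in bins of 0.25. The mitotic genes lie in a narrow band around -2.18, and 52 of them are left of the 2-fold line, where 11.0% of all genes lie.

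The differences also lay close together. Their SD across the 53 genes was 0.43, against 0.88 across all measured genes, and 42 of them were within 0.5 of their median. At least 4-fold lower were 35 genes, where 2.39% of all measured genes were, and 17 were between 2-fold and 4-fold lower. By mean level over both arrays, the median was -2.11 among the dimmest 18 genes, -2.11 among the middle 18 and -2.28 among the brightest 17. The probes lie on 17 chromosomes, with at most 9 genes on any of them (chromosome 2). Ccnb1 and Cenph have neighbouring probes on chromosome 13, at chr13:101548722-101548781 and chr13:101534182-101536833.

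**Figure D2:**
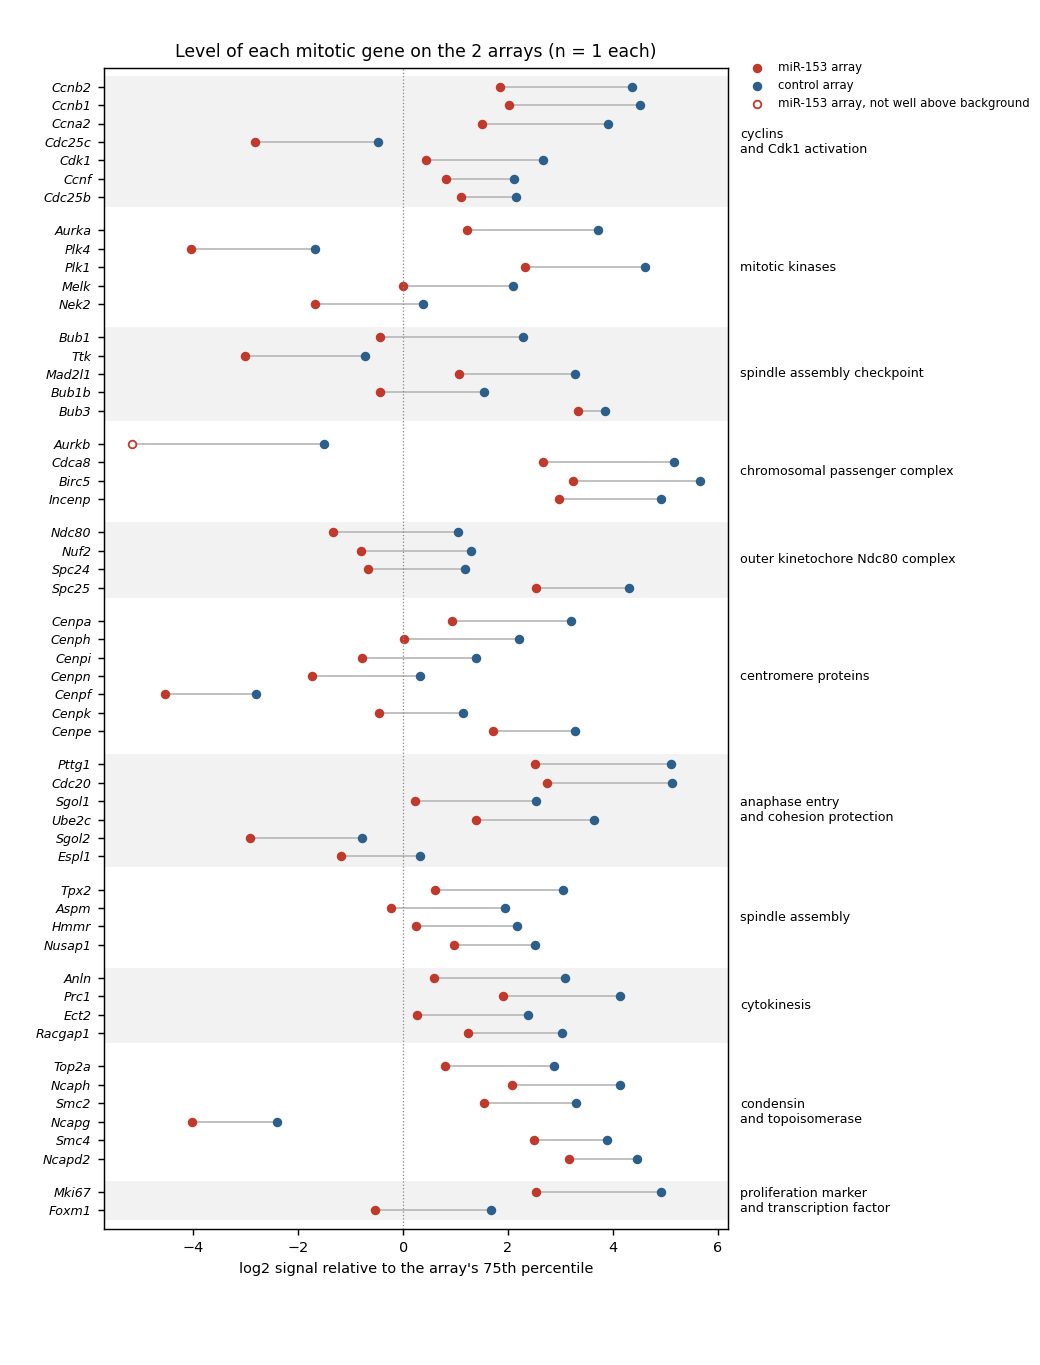
Each row is a mitotic gene, grouped by role, and the points give its log2 signal relative to the 75th percentile on the miR-153 array (red) and on the control array (blue), with 1 array each. In every row the red point is left of the blue one, by the least for Bub3, and the open point of Aurkb was not well above background.

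The mitotic cyclins and Cdk1 were lower throughout. Ccnb2, a partner of Cdk1 in mitosis, had a signal of 3.61 on the miR-153 array and 20.7 on the control array, a 5.73-fold lower level. Ccnb1, the cyclin whose destruction ends mitosis, had 4.04 on the miR-153 array and 23.0 on the control array (5.69-fold lower). Its 3 probes lay between -2.83 and -2.28. Ccna2, which acts in S phase and early mitosis, had 2.86 and 14.98 on the miR-153 and control arrays (5.24-fold lower). The kinase gene Cdk1 itself had 1.35 on the miR-153 array against 6.38 on the control array, at -2.24, but its 3 probes were spread from -2.66 to -1.26. The weakest of them is dim, with a signal of 0.0509 on the miR-153 array and 0.122 on the control array.

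The phosphatases that switch Cdk1 on did not move alike. Cdc25a, from a list read further below and named after its value was seen, was at -0.74, short of 2-fold. Cdc25c was at 0.141 on the miR-153 array and 0.724 on the control array, a difference of -2.36, or of -1.68 under an alternative background correction (normexp). Cdc25b, at chr2:131023911-131023970, was at 2.15 on the miR-153 array and 4.42 on the control array, 2.05-fold lower and the nearest of the 52 to the 2-fold line. Its difference of -1.04 fell short of 2-fold with 3 alternative settings, the closest to 0 being -0.78. Ccnf, a cyclin that serves as the substrate receptor of a ubiquitin ligase, was at 1.77 on the miR-153 array and 4.36 on the control array (2.47-fold lower).

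All 5 mitotic kinase genes were lower, between -2.51 and -2.05. Aurka, the kinase of centrosomes and spindle poles, was at 2.31 on the miR-153 array and 13.1 on the control array, a difference of -2.51. Plk1, which drives mitotic entry and spindle assembly, was at 4.997 and 24.4 on the miR-153 and control arrays (-2.28). The smallest difference of the group was that of Nek2, a centrosome kinase gene, with 0.313 on the miR-153 array and 1.30 on the control array. Melk, a kinase gene tied to proliferating progenitors, was at -2.09. The dim gene Plk4, whose kinase starts centriole duplication, was at -2.36, or at -1.38 under normexp.

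Among the checkpoint genes, 4 of 5 were at least 2-fold lower. Bub1, a checkpoint kinase gene at chr2:127626988-127627047, had the largest difference of the 53, with a signal of 0.733 on the miR-153 array and 4.86 on the control array (6.63-fold). Its probe was spotted 8 times on each array, and the 8 spot differences lay between -2.83 and -2.62, with an SD of 0.068. Ttk, the kinase that recruits checkpoint proteins to kinetochores, was at 0.123 and 0.605 on the miR-153 and control arrays (-2.29, or -1.51 under normexp). Mad2l1, the inhibitor of Cdc20, differed by -2.19 on its brightest probe and by -1.75 and -1.53 on the others, and Bub1b, a subunit of the same inhibitor complex, by -1.99.

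Bub3 stood apart from its partners. It encodes the adaptor that carries Bub1 and Bub1b to the kinetochore, and had a signal of 10.0 on the miR-153 array and 14.4 on the control array, a 1.44-fold lower level (-0.53). That is close to the SD between probes of a gene, and 27.3% of all measured genes differed by as much or were lower. The gene has 1 probe, which spans chr7:138712221-138714437, longer than the 60 bases of a probe. Over the alternative settings its difference ranged from -0.53 to -0.27.

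The chromosomal passenger complex, which corrects faulty attachments and later directs cytokinesis, was lower in each of its subunits that could be measured. Cdca8 (borealin) was at 6.36 on the miR-153 array and 36.1 on the control array, 5.67-fold lower. Birc5 (survivin) was at 9.46 and 50.3 on the miR-153 and control arrays, and its 3 probes ranged from -2.72 to -2.41. Incenp, the scaffold subunit, was at 7.82 on the miR-153 array and 30.2 on the control array (-1.95, with a second probe at -1.89). The kinase of the complex, Aurkb, at chr11:68865105-68865164, was at 0.353 on the control array and not detected on the miR-153 array, where its signal read 0.028. By the floor rule set out below, this puts it at least 10.3-fold lower in miR-153 cells. Its only probe has 1 spot and is dim on the control array, and the bound was not recomputed under normexp.

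**Figure D3:**
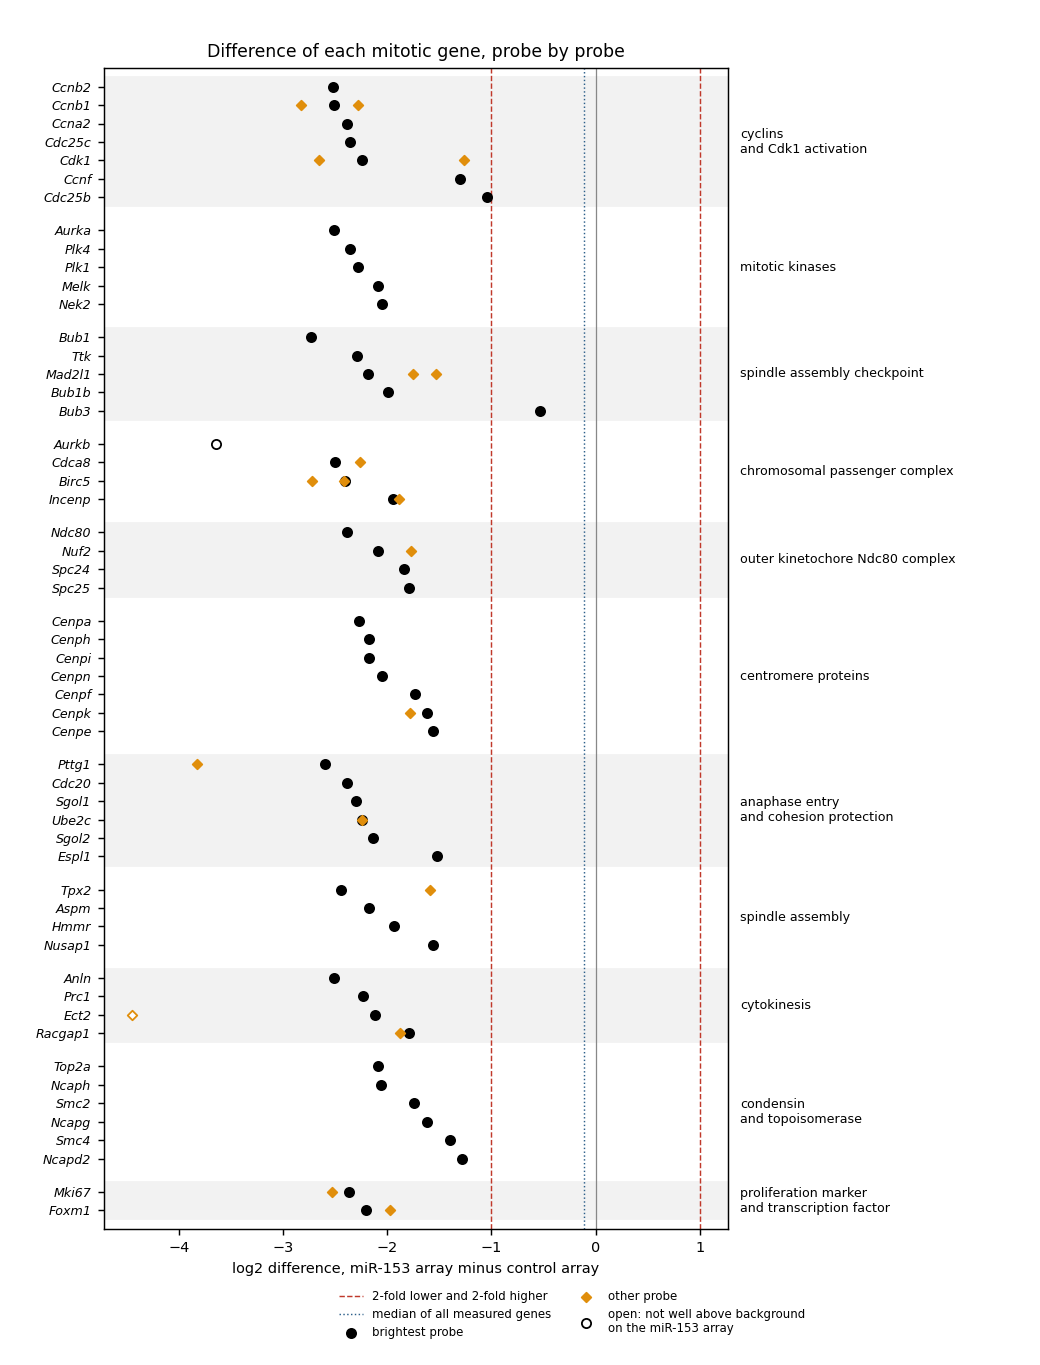
Points give the log2 difference of each probe of each mitotic gene (miR-153 minus control), with the brightest probe in black, other probes in orange and probes not detected on the miR-153 array open. Of the 71 measured probes all are left of 0, and 70 are left of the 2-fold line, the exception being that of Bub3.

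Kinetochore genes were lower at the microtubule and at the centromere alike. In the Ndc80 complex, which binds the microtubule, Ndc80 had 0.395 on the miR-153 array and 2.07 on the control array (-2.39), the largest difference of its 4 subunits. Spc25 had the smallest, with 5.76 and 19.9 on the miR-153 and control arrays (-1.79), and Nuf2 (-2.09) and Spc24 (-1.84) were between. All 4 subunits were thus lower by 3.45 to 5.23-fold.

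Of the 7 centromere protein genes, Cenpa, the histone H3 variant that marks the centromere, differed most, with a signal of 1.91 on the miR-153 array and 9.21 on the control array (4.82-fold lower). Cenpe, a motor that moves chromosomes to the spindle equator, differed least, with 3.30 and 9.72 on the miR-153 and control arrays (2.94-fold lower). The inner kinetochore genes Cenph, Cenpi, Cenpn and Cenpk were between -2.18 and -1.62. Cenpf, whose protein builds up through the cell cycle on the outer kinetochore, was dim, at 0.0434 on the miR-153 array and 0.144 on the control array. That is a difference of -1.73, which normexp put at -0.88, short of 2-fold.

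Genes that start anaphase were lower too. Pttg1, the securin that holds separase in check, was at 5.70 on the miR-153 array and 34.5 on the control array (6.05-fold lower), and a second, dimmer probe gave 14.3-fold. Cdc20, the activator of the anaphase-promoting complex, was at 6.66 and 34.8 on the miR-153 and control arrays (5.22-fold lower). Both probes of Ube2c, the ubiquitin-conjugating enzyme of that complex, gave -2.24. Espl1, separase itself, differed least in the group, with 0.441 on the miR-153 array and 1.26 on the control array (2.86-fold lower). The shugoshin genes Sgol1 and Sgol2 (older names of Sgo1 and Sgo2a), whose proteins protect cohesin at the centromere, were at -2.30 and -2.14, with Sgol2 at -1.54 under normexp.

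Spindle and cytokinesis genes formed part of the same band, with all 8 at least 2-fold lower. Tpx2, which activates Aurora A and nucleates microtubules, was at 1.52 on the miR-153 array and 8.29 on the control array (-2.45), although its dimmer probe gave -1.59. Nusap1, a microtubule bundler, was at 1.94 and 5.72 on the miR-153 and control arrays (-1.56), the smallest difference among the spindle genes. Aspm, a spindle pole gene whose loss causes microcephaly, was at 0.855 on the miR-153 array and 3.86 on the control array (-2.18), and Hmmr at -1.94. In cytokinesis, Anln, a scaffold of the contractile ring, was at 1.49 on the miR-153 array and 8.52 on the control array (-2.51). Racgap1, a subunit of centralspindlin, was at 2.36 and 8.19 on the miR-153 and control arrays (-1.79), with Prc1 (-2.23) and Ect2 (-2.12) between. A second probe of Ect2 was detected in control cells alone.

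Condensin genes had the smallest median of the role groups, -1.68, with all 6 genes, topoisomerase included, at least 2-fold lower. Ncapd2, a subunit of condensin I at chr6:125118012-125118066, was at 9.01 on the miR-153 array and 21.96 on the control array, 2.44-fold lower. Smc4 (-1.40) and Smc2 (-1.74), the ATPases shared by both condensins, and Ncaph (-2.06), which links them, were lower by more. Ncapg was dim, at 0.0611 on the miR-153 array and 0.188 on the control array. Its difference of -1.62 became -0.79 under normexp, short of 2-fold. Top2a, which untangles DNA alongside condensin, was at 1.73 on the miR-153 array and 7.37 on the control array (4.25-fold lower).

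The proliferation marker Mki67, coating mitotic chromosomes, was at 5.78 on the miR-153 array and 30.0 on the control array (5.19-fold lower, with a second probe at 5.78-fold). Foxm1, the transcription factor that drives many of these genes, was at 0.693 and 3.20 on the miR-153 and control arrays, 4.62-fold lower. Its second probe gave 3.91-fold.

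Other genes of mitosis were read from 6 further lists, and they did not all share the band. Of 74 measured, 30 were at least 2-fold lower and 1 at least 2-fold higher, with a median of -0.75. In the anaphase-promoting complex, the ligase itself, 2 of 14 were lower, 0 higher, and the median was -0.17. Those were its inhibitor Fbxo5 (-1.68) and the subunit Anapc1 (-1.32). Another subunit, Anapc10, was detected in miR-153 cells alone, where it was higher by 2.10-fold or more. For cohesin and its regulators the median was -0.20, with 3 of 13 lower and 1 higher: Esco2 (-1.81), an acetyltransferase of S phase, Cdca5 (-1.65), which holds cohesin on DNA, and Pds5a (-1.21) were lower, and Esco1 (1.13) was higher.

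Among other centromere and kinetochore proteins, 16 of 24 were at least 2-fold lower, 0 higher, and the median was -1.74. Cenpw was at 1.23 on the miR-153 array and 7.64 on the control array (6.19-fold lower), followed by Cenpp (-2.41) and Kntc1 (-2.29). Picked after their values were seen, Cenpb (0.09) and Mis12 (-0.41) were not 2-fold apart, and the probes of Zwint disagreed, from -0.75 to 0.69. Of the other regulators of Cdk1, 6 of 9 were lower, 0 higher, with a median of -1.95. They were led by Gtse1 (-2.65), Cks2 (-2.46), a small subunit that binds Cdk1, and Mastl (-2.45), the kinase that restrains the phosphatase opposing Cdk1. In condensin II, Ncapg2 (-2.24) was lower, while the remaining subunits, Ncapd3 (-0.97) and Ncaph2 (-0.76), named after their values were seen, were short of 2-fold.

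Genes of the DREAM and MuvB complexes, which act on CHR promoters, had 2 of 11 lower and 0 higher, with a median of -0.51. The lower members were Mybl2 (B-Myb, the activating partner of MuvB in dividing cells), with 1.28 on the miR-153 array and 6.28 on the control array (4.92-fold lower), and the pocket protein gene Rbl1 (-1.45). A second probe of Rbl1 gave -2.1. The other 9, named here after their values were seen, were not 2-fold apart on their brightest probes. Tfdp1 (-0.98), Lin54 (-0.97), Lin9 (-0.92), Rbbp4 (-0.51) and E2f5 (-0.38) were on the lower side. Second probes of Tfdp1 (-1.07), Lin9 (-2.04) and Rbbp4 (-1.22) were past 2-fold lower. E2f4 (-0.02), Lin37 (0.10), Lin52 (0.19) and Rbl2 (0.22) were nearer 0 or above it.

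**Figure D4:**
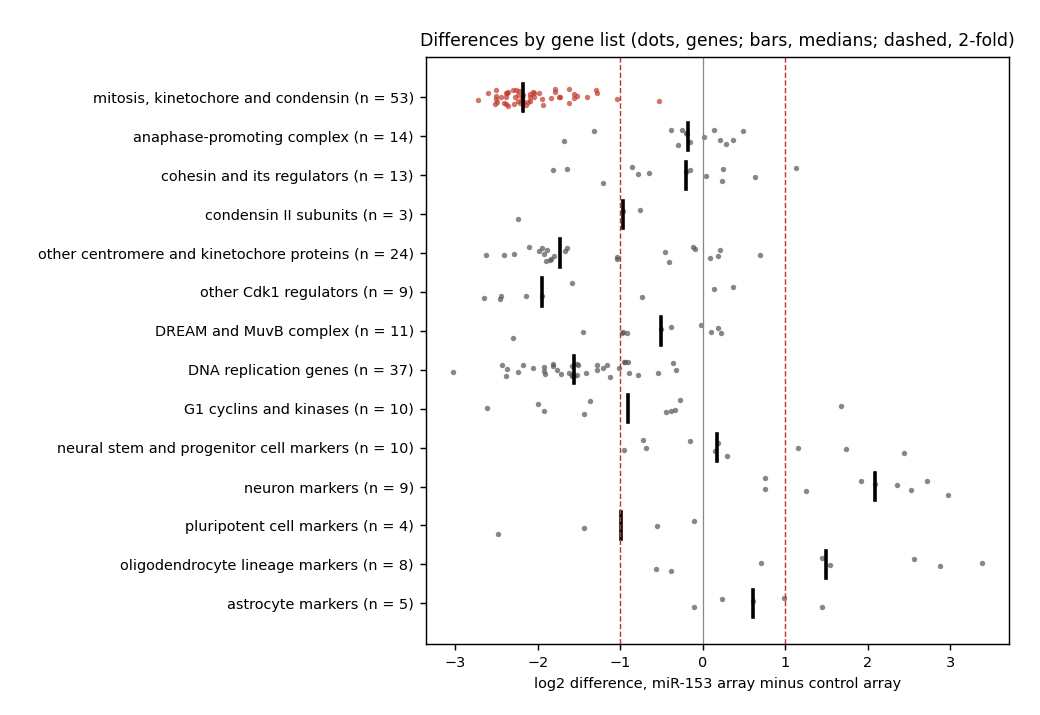
Dots give the log2 difference of each measured gene (miR-153 minus control) by list, and bars the medians. The 53 mitotic genes sit around -2.18, the anaphase-promoting complex around -0.17 and cohesin around -0.20, while neuron markers sit around 2.09.

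RefSeq promoter windows were matched for 46 of the 54 genes. Of these, 29 (63.0%) held both the CHR letters and CCAAT, against 7.70% of 27025 mouse genes with a window. The CHR letters were in 67.4% of the mitotic windows and 19.4% of all windows, and CCAAT in 78.3% and 37.9%. More than a single CCAAT was found in 45.7% of the mitotic windows and 12.2% of all. Matches of the 2 motifs can overlap, as in the Cdca8 window printed above. Where a gene has several windows the first in the table was used.

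The CHR letters also lay near the transcript start. Of 42 matches in mitotic windows, 71.4% began within 50 bases of the start, against 24.7% of 6066 matches in all windows. Counting the start as base 1 and the base before it as -1, the Bub1 match began at base 15, after both CCAAT matches, and the Cdc20 match at -18, between CCAAT matches. The mitotic genes had similar medians with and without the motifs. Genes with both motifs had a median of -2.12 (29 genes), those with CCAAT only -2.14 (7 genes), those with the CHR letters only -2.45 (2 genes, Ndc80 and Anln) and those with neither -2.14 (8 genes, Pttg1 and Birc5 among them). Bub3 holds both motifs as well, with the CHR letters at base -43.

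**Figure D5:**
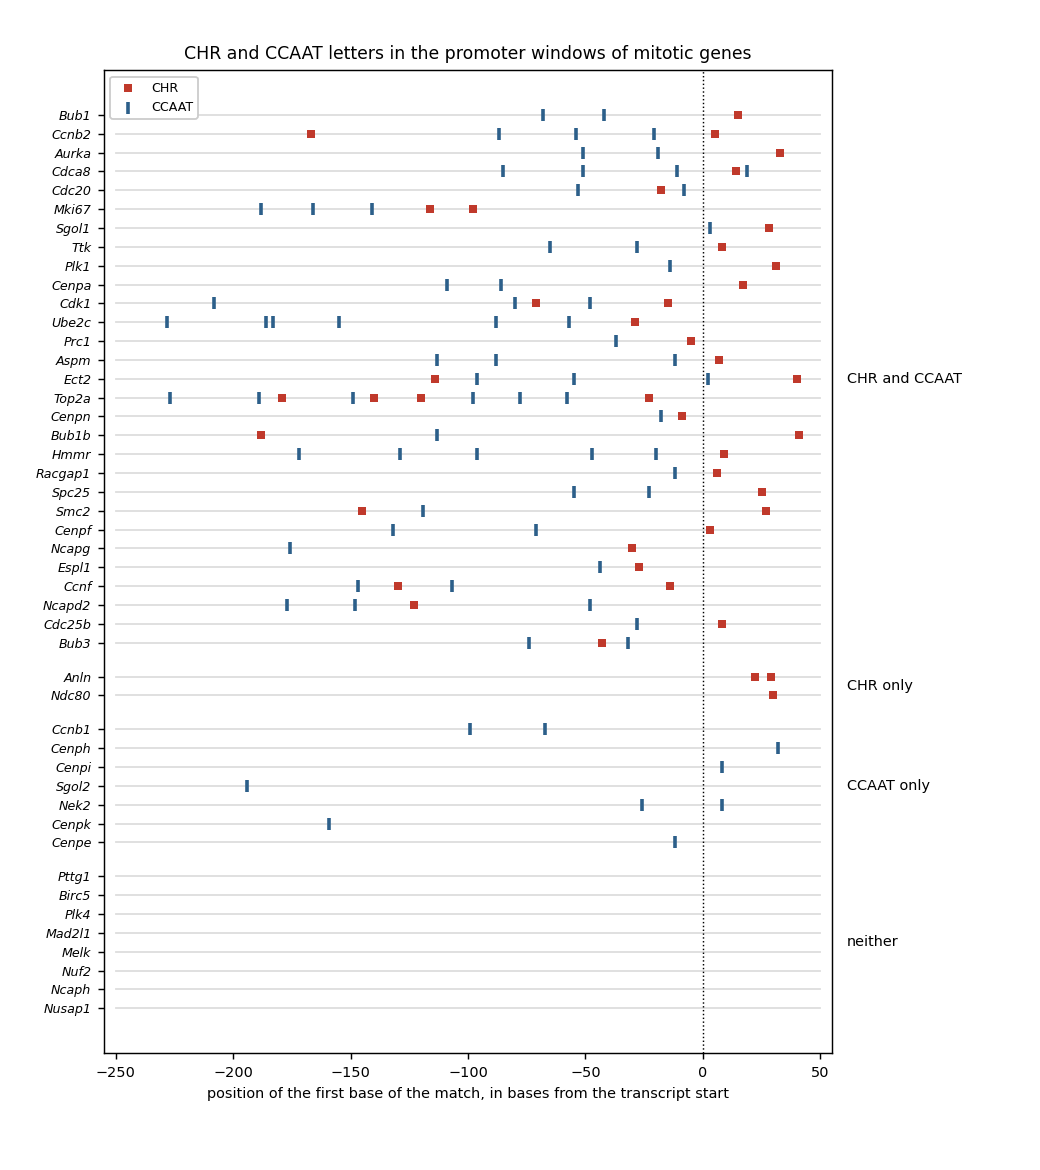
Rows are the 46 mitotic genes with a promoter window, grouped by the motifs held and ordered by difference within a group, and the horizontal axis is the distance in bases from the transcript start. Red squares (CHR) gather near the start and blue bars (CCAAT) mostly before it, and 8 genes hold neither.

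Beyond the 54 genes, 10774 measured genes had a window, and 9.12% of them were at least 2-fold lower. Of the 603 with both motifs 15.4% were lower and 9.45% higher, against 8.36% and 11.2% of the 5764 with neither. Only the 54 genes were left out, so genes of the other mitotic lists and of DNA replication were still among these. Among genes of the other mitotic lists, 9 of the 11 with both motifs were at least 2-fold lower, with a median of -1.85. The 49 with 1 motif or neither had 15 lower and a median of -0.41. Of the 11, 7 came from the other centromere and kinetochore proteins, where 16 of 24 measured genes were lower. The anaphase-promoting complex, with 2 of 14 lower, gave 1. Motif and list are thus mixed in this contrast, and the part of each was not tested. A motif match is a description of these letters and does not show binding.

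Markers of other cells moved beside the mitotic genes. Of 9 neuron markers, 7 were higher by 2-fold or more in miR-153 cells and 0 lower, with a median of 2.09, and their summed signal was 179 on the miR-153 array and 50.5 on the control array. All 9 were detected on both arrays, and the name Map2 was not found on the array. Oligodendrocyte lineage markers had 5 of 8 higher and 0 lower, with summed signals of 125 and 87.4 on the miR-153 and control arrays. Pluripotent cell markers had 2 of 4 measured genes lower and 0 higher, and all 6 on the array had summed signals of 3.29 and 6.24 on the miR-153 and control arrays. Astrocyte markers had 1 of 5 measured genes higher and 0 lower, and all 6 on the array had summed signals of 97.8 and 86.7 on the miR-153 and control arrays. The part of these cells in the mitotic differences was not tested. In such bulk samples, fewer dividing cells and less of each transcript per cell cannot be told apart.

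The common scale of the arrays shifts every difference by the same amount. With scaling on spike-in RNA the median of all genes was 0.16, with 1484 genes lower and 2913 higher, which makes 33.8% of those past 2-fold lower, against 54.5% with the 75th percentile. The mitotic genes then had 51 of 53 at least 2-fold lower and a median of -1.92. Their median lay 2.07 below that of all genes under either scaling, by construction.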

How the data were processed

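Total RNA (50 ng) of each culture was labelled with Cy3 and hybridised to 1-colour Agilent arrays, per the labels' protocols. The authors deposited scanner intensity values. The submitters' processing notes name Agilent Feature Extraction 10.7.3.1. The processed signal is a background-subtracted, detrended linear intensity, per the file headers. The deposited series table holds the same intensity divided by a constant, 485 for the miR-153 array and 381 for the control array. Once scaled to the 75th percentile, as in its use here, it gives the same differences by construction, so it is no check of the results.

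From these, log2 of the processed signal minus the array's 75th percentile over non-control spots was computed. Outlier spots (229) were left out, repeat spots were averaged, and 55674 probes remained. The brightest probe over both arrays stood for each name in the gene name column, which gave 36400 names. A gene was measured where it was well above background on both arrays, and lower or higher where at least 2-fold apart. This is a rule of size, not a test, and no p-value was made. For a gene detected on 1 array, a bound was taken over the other array's floor, its lowest log2 level well above background (-4.86 for miR-153, -4.34 for control), or over the gene's own signal where that was higher. Array number limits the precision.

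Alternatives, run in part with limma 3.58.1 under R 4.3.3, were normexp with an offset of 50, quantile and lowess normalization, 3 other scalings, the series table, other probe rules and filters, and folds of 1.5 and 3. The steps were run on simulated data with set folds well past 2-fold and small noise. Such a run checks the code and says nothing about the results. Every one of the 54 genes could be named. From the other lists, up to 3 genes with the largest differences past 2-fold were named, and any past 2-fold against the list's direction. Other genes of those lists, and of the cell markers, were named after their values were seen: those short of 2-fold, those detected on 1 array, and the progenitor markers. The members and lists were chosen with earlier results of these data known. Promoter and microRNA sequences are from RefSeq (GRCm38.p6), matched by symbol, accession or synonym.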

Additional observations from a re-analysis of the deposited data

How the results depend on the processing

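No paired analysis was possible because each group has 1 array, and for the same reason no replicate could be left out. In 9 alternatives that kept 53 or 54 mitotic genes, the values or the genes counted could change. Between 49 and 53 of the genes were at least 2-fold lower there, with medians between -2.19 and -1.92. The count of 53 came with no filter on dim probes, which changes no value and adds Aurkb. The series table, rescaled to the 75th percentile, returned the reported values by construction. With bright probes only the count was 39 of 40, against 8.89% of all such genes. By the second brightest probe it was 14 of 14, the number of genes with such a probe, against 12.4% of 5031 genes measured that way. Set at 1.5-fold the count was 52 of 53, and at 3-fold 45 of 53. The shares of all genes at 1.5-fold and 3-fold were not computed, so those counts describe the set alone. None was at least 2-fold higher in any of these settings. By gene, 49 were at least 2-fold lower in every setting that measured them, and no difference changed sign. Cdc25b (-0.97), Cenpf (-0.88) and Ncapg (-0.79) fell short of 2-fold under normexp, and Cdc25b also under scaling on the median (-0.94) or on spike-in RNA (-0.78); the cause was not tested. Over all genes, 2258 were lower and 1887 higher as reported, 1528 and 1199 under normexp, and 1484 and 2913 under spike-in scaling. Low signal limits the dim genes: normexp moved 6 of them past the technical spread, Plk4, Ttk and Sgol2 among them, to -1.38, -1.51 and -1.54.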

Other observations

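Genes that act earlier in the cell cycle were also lower on the miR-153 array, though less evenly. Of 37 measured DNA replication genes, 29 were at least 2-fold lower and 0 higher, with a median of -1.56 and an SD of 0.60 across genes. Tk1, which salvages thymidine, was at 1.49 on the miR-153 array and 12.2 on the control array (8.17-fold lower), followed by Pole (-2.44), the polymerase of the leading strand, and Rrm2 (-2.38), a subunit of ribonucleotide reductase. Orc1, of the origin recognition complex, was detected in control cells alone, and was at least 5.62-fold lower in miR-153 cells. Both promoter motifs were found in 17.2% of the 29 replication genes with a window. The difference between these genes and the mitotic genes was not tested.

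Regulators of G1 went several ways, with 5 of 10 measured at least 2-fold lower, 1 higher and a median of -0.91. Ccnd1, the D-type cyclin of G1 entry, was at 5.45 on the miR-153 array and 33.4 on the control array (6.13-fold lower). Chosen after their values were seen, the other D-type cyclins, Ccnd2 (-0.45) and Ccnd3 (-0.34), and the inhibitor Cdkn1b (-0.39) were not 2-fold apart. Cdk inhibitors were divided: Cdkn1c (p57), expressed in cells leaving the cycle, was at 28.7 on the miR-153 array and 8.99 on the control array (3.20-fold higher), while Cdkn1a (3.99-fold) and Cdkn2c (3.79-fold) were lower.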
